A study of Homo sapiens with 6 samples.

Results

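The levels of 10 AP-1 and immediate early genes were examined in NB4 cells after Tanshinone I (Tan I), namely FOS, FOSL2, JUN, JUNB, JUND, EGR1, IER2, DUSP1, KLF6 and BTG2. They were chosen by gene symbol, and each of the 10 had a single row among the 18625 genes of the expression table. NB4 is a human acute promyelocytic leukemia cell line that carries the PML-RARA fusion, and Tan I is a lipid-soluble diterpene of the herb Salvia miltiorrhiza (Dan-shen). RNA-seq was done on NB4 cells kept for 3 days in DMSO, the solvent, or in 10 μM Tan I, with 3 libraries in each group. All 6 libraries came from the same unmodified line, and the labels do not say whether replicates were separate cultures, so the p-values below measure only the spread between these libraries, which may be technical. The study asked which genes Tan I changes in leukemia cells.

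Immediate early genes are switched on within minutes of a growth factor or stress signal, without new protein synthesis, and their transcripts are short-lived. MAP kinases and the cAMP pathway act on transcription factors already bound at these promoters, such as serum response factor with its ETS partners and CREB. Their products include the subunits of AP-1, a dimer of a JUN protein with a FOS protein or with another JUN protein, the zinc finger factors EGR1 and KLF6, and brakes on the signal such as DUSP1, a phosphatase that inactivates MAP kinases. In myeloid cells AP-1 and EGR1 are known for their part in monocytic differentiation.

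The promoters of the 4 of these genes that showed the widest spread between libraries are printed here. These genes carry the main pattern seen among the 10, low values in DMSO replicate 2. Each is the 250 bases before the RefSeq transcription start on GRCh38.p14, read 5′ to 3′ on the strand of the gene, with FOS at chr14:75278578-75278827 on the + strand, JUN at chr1:58784048-58784297 on the minus strand, EGR1 at chr5:138465229-138465478 on the + strand and DUSP1 at chr5:172771196-172771445 on the minus strand. Capitals mark the CArG box (CC, then 6 A or T, then GG), which serum response factor reads, and the CREB half-site TGACG on either strand (CGTCA when read from the other strand), which overlaps the full site TGACGTCA.
FOS: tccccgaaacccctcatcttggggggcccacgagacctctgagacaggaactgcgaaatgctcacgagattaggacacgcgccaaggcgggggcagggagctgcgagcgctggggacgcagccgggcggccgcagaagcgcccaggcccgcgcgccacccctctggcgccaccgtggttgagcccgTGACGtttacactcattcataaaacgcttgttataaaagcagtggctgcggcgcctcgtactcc
JUN: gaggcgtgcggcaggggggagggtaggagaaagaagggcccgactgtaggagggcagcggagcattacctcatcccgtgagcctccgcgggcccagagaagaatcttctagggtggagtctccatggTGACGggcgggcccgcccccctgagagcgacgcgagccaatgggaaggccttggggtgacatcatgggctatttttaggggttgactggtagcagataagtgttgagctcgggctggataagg
EGR1: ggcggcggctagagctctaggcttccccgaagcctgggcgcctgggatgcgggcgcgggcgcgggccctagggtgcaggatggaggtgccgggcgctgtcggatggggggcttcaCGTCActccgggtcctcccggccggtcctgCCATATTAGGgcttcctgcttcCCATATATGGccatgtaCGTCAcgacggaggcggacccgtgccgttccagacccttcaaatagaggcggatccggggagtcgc
DUSP1: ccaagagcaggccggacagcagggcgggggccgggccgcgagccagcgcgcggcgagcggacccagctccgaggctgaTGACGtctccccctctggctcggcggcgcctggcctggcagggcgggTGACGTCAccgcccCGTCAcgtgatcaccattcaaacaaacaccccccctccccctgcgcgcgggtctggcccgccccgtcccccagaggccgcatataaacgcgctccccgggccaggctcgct
Of the 35116 RefSeq promoters of this length, 1.16% held a CArG box, 1.65% the full site TGACGTCA and 21.2% the half-site. EGR1 had 2 CArG boxes, CCATATTAGG from -105 to -96 and CCATATATGG from -83 to -74 relative to the start, and 0 of the other 9 promoters had any within these 250 bases. The half-site was found in 9 of the 10 promoters, all but KLF6, and the full site in DUSP1 (-125 to -118) and JUND (-200 to -193). The AP-1 site TGANTCA occurred in 0 of the 10, against 6.57% of all promoters. That pattern does not match related forms with other spacing, such as tgacatca, which is present in the promoters of JUN and KLF6 and was not counted. These are matches of letters only, and elements farther upstream lie outside the window.

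The libraries held 21502760 to 31679138 reads on the listed genes, and all 10 genes passed the filter of a mean of at least 10 normalized counts (reads divided by the size factor of the library) that left 16887 genes for testing. Among promyelocyte markers, MPO, the myeloperoxidase of primary granules, had 33279 to 64107 normalized counts, and 7 of the 8 fixed markers were found. The monocyte marker CD14 had 5.47 to 18.7 and the T cell marker CD3E 8.67 to 20.02. DMSO replicate 2 and Tan I replicate 3 stood apart from the rest at the same end of the leading principal component (70.8% of the variance over the genes tested), with scores of 41.1 and 71.6. The other 4 libraries scored from -48.0 to 8.65. DMSO replicate 2 also stood apart in several of the 10 genes, so results that rest on it are given with and without it.

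With all 6 libraries, BTG2 was the single gene of the 10 that passed an unadjusted p of at most 0.05 with a log2 fold change of 0.25 or more in either direction, the thresholds of the study (limma on log2(normalized count + 1), Tan I over DMSO). Of all genes tested, 2.42% were called by the same rule, 1.32% as higher and 1.10% as lower. After Benjamini-Hochberg adjustment limma called 0 of the 10 and 0 of the 16887 genes, while 410 genes had an unadjusted p of at most 0.05, edgeR also called 0 and DESeq2 called 16 on the recovered reads, none of them among the 10. The log2 fold change was positive for 9 of the 10 genes and negative for FOSL2, but FOS, JUN and DUSP1 were negative in edgeR and DESeq2. The median was 0.20, beside -0.0016 over all genes. Without DMSO replicate 2 the median of the 10 was -0.04. The count of called genes also moved with single libraries, to 0 without DMSO replicate 1, Tan I replicate 2 or Tan I replicate 3, and to 4 without DMSO replicate 2 or without Tan I replicate 1, where 2.76% and 8.86% of all genes were called.

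**Figure D1:**
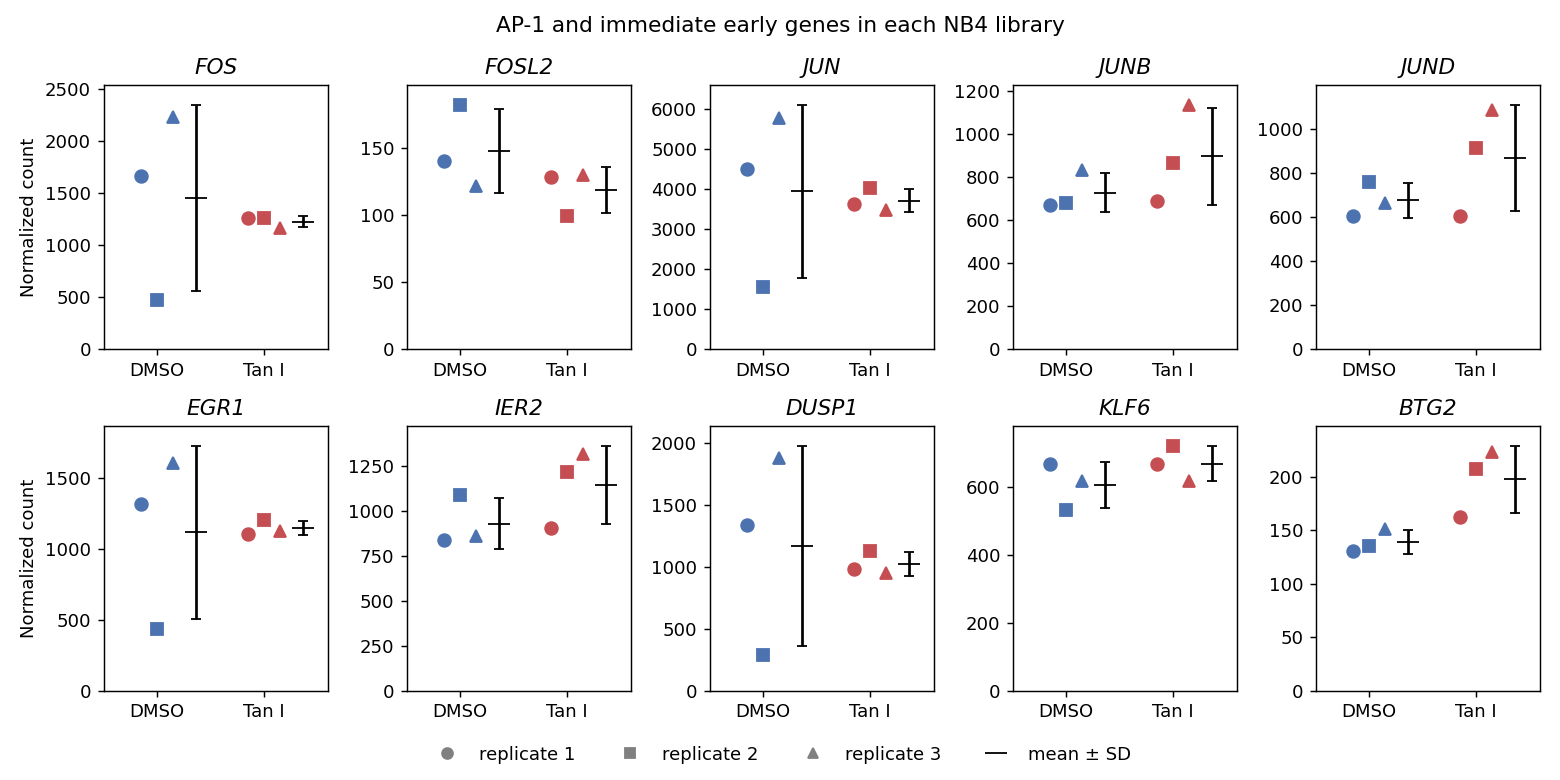
Normalized counts of the 10 genes in each library (points, symbol by replicate, vertical axes starting at 0) with the mean and SD of each group of 3 (black). DMSO replicate 2 lies far below the other 5 libraries for FOS (476), JUN (1560), EGR1 (434) and DUSP1 (292), whereas for BTG2 the lowest Tan I library (162) exceeds the highest DMSO library (152).

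FOS, the founding FOS subunit of AP-1, had 1660, 476 and 2227 normalized counts in DMSO replicates 1, 2 and 3, and 1259, 1257 and 1162 in Tan I replicates 1, 2 and 3. The 3 Tan I libraries lay close together, and DMSO libraries lay on either side of them. Group means were 1454 ± 893 under DMSO and 1226 ± 55.8 under Tan I (SD, n = 3 each). The mean log2 values were 10.24 and 10.26, in the opposite order, because DMSO replicate 2 weighs more on the log scale. The log2 fold change was 0.02 with a 95% confidence interval of -1.18 to 1.22 (limma, adjusted p = 0.999), so neither a doubling nor its opposite lay outside the interval. As the RNA is from bulk cultures, fewer cells expressing FOS and less FOS RNA per cell cannot be told apart, here or for the genes below.

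JUN, the founding JUN subunit, had the same arrangement at a higher level, with 4505, 1560 and 5789 normalized counts under DMSO and 3641, 4028 and 3474 under Tan I. Its log2 fold change was 0.11 with a confidence interval of -0.92 to 1.14 (limma, adjusted p = 0.999). JUN is a gene of 1 exon on chromosome 1 (58776845 to 58784048, minus strand), and FOS a gene of 4 exons on chromosome 14 (75278826 to 75282230, plus strand). Neither overlaps another gene in GENCODE release 44 on GRCh38.

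EGR1, a zinc finger factor induced by ERK signalling, measured 1313, 434 and 1603 normalized counts under DMSO and 1105, 1201 and 1126 under Tan I. For DUSP1, the MAP kinase phosphatase, the values were 1342, 292 and 1882 under DMSO and 982, 1131 and 948 under Tan I. In both genes DMSO replicate 2 was the lowest and DMSO replicates 1 and 3 the highest of the 6 libraries, and the Tan I libraries filled the gap. Log2 fold changes were 0.24 (-0.80 to 1.27) for EGR1 and 0.17 (-1.27 to 1.62) for DUSP1, each with an adjusted p of 0.999 from limma. A long noncoding gene on the opposite strand overlaps DUSP1, and since the strand setting of the counting is not given in the sources used here, its reads cannot be told apart from those of DUSP1.

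The low values of DMSO replicate 2 exceeded counting error. FOS was covered by 494 reads there, and the exact Poisson 95% interval, which covers counting error only, was 435 to 520 normalized counts. The corresponding intervals were 1485 to 1638 for JUN, 395 to 476 for EGR1 and 260 to 327 for DUSP1, all below the lowest of the other 5 libraries. Relative to the mean of the other 2 DMSO libraries, DMSO replicate 2 had 0.245 times the FOS level, 0.303 times the JUN level, 0.298 times the EGR1 level and 0.181 times the DUSP1 level. These 4 genes lay at least 1 log2 unit below every other library in DMSO replicate 2, which held for 0.817% of all genes tested (138 of 16887). In the 5 other libraries 0 of the 10 genes stood that far below the rest, including Tan I replicate 3, in which 399 genes did. The 4 genes were thus not set apart in the other library at that end of the leading component.

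Without DMSO replicate 2, these 4 genes were lower in all 3 Tan I libraries than in both remaining DMSO libraries. The differences in mean normalized count were -36.9% for FOS, -27.8% for JUN, -21.5% for EGR1 and -36.7% for DUSP1. The log2 fold changes were then -0.65 for FOS (95% confidence interval -1.03 to -0.27), -0.64 for DUSP1 (-1.07 to -0.21), -0.46 for JUN (-0.83 to -0.09) and -0.34 for EGR1 (-0.67 to -0.02), and the limma p after adjustment was 0.734 for each of the 4. DMSO replicate 2 was singled out because it was low in these same genes, so the values without it are a description and not a test of Tan I, and their narrower intervals follow from that choice. Without DMSO replicate 3 in its place, the log2 fold changes were 0.46 for FOS, 0.48 for JUN, 0.60 for EGR1 and 0.70 for DUSP1. With DMSO replicate 2 left out, the unadjusted rule called these 4 of the 10 genes, all as lower, from which nothing is read, and 1.04% of all genes were called as lower and 1.72% as higher. The groups did not overlap for 6 of the 10, 4 with Tan I lower and 2 (BTG2 and IER2) with Tan I higher, where this held for 21.9% of all genes, 10.3% with Tan I lower and 11.7% with Tan I higher. 

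**Figure D2:**
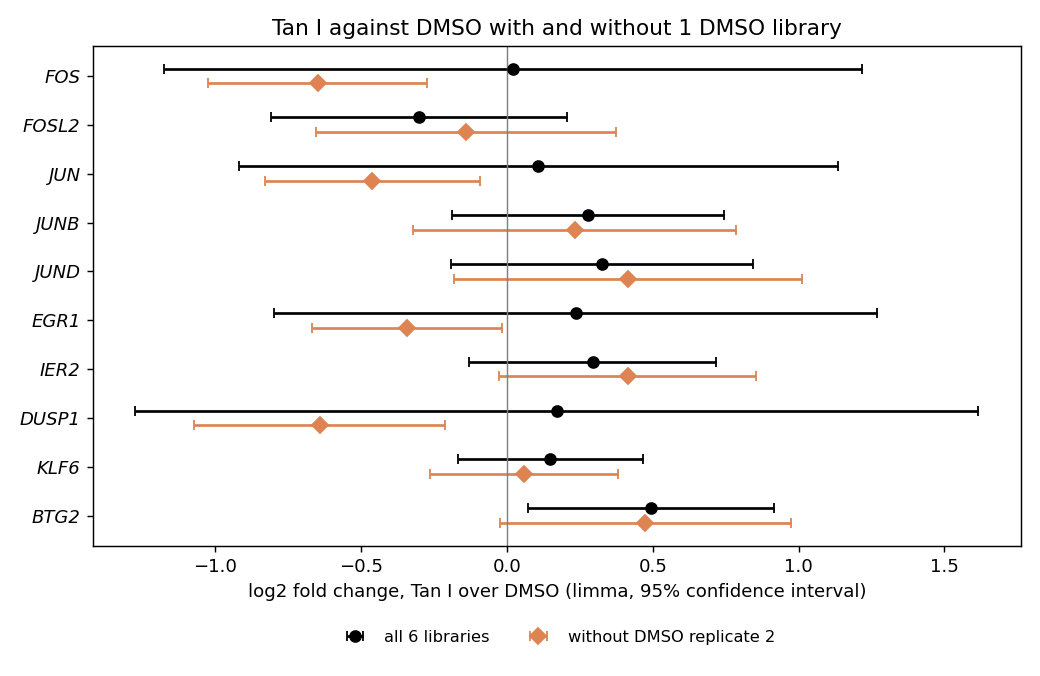
Log2 ratio of Tan I to DMSO (horizontal axis) for the 10 genes, with 95% confidence intervals from limma, for all 6 libraries (black circles) and without DMSO replicate 2 (orange diamonds). FOS, JUN, EGR1 and DUSP1 move from 0.02, 0.11, 0.24 and 0.17 to -0.65, -0.46, -0.34 and -0.64 with narrower intervals, while BTG2 moves from 0.49 to 0.47. The library was left out because it was low in those 4 genes.

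JUNB and JUND, JUN proteins that are weaker activators than JUN and often oppose it, had another order of libraries. JUNB had 671, 680 and 835 normalized counts under DMSO and 689, 865 and 1139 under Tan I. For JUND the values were 605, 761 and 662 under DMSO and 607, 913 and 1086 under Tan I. Both were highest in Tan I replicates 2 and 3, and in both Tan I replicate 1 lay among the DMSO libraries. Log2 fold changes were 0.28 (-0.19 to 0.74) for JUNB and 0.33 (-0.19 to 0.84) for JUND (limma, adjusted p = 0.999 for each). JUNB overlaps HOOK2, a protein-coding gene on the opposite strand.

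FOSL2, a FOS protein without the strong activation domain of FOS, was per kilobase of transcript the least abundant of the 10, with 140, 182 and 121 normalized counts under DMSO and 128, 99.1 and 129 under Tan I. Here DMSO replicate 2 was the highest library and not the lowest. The log2 fold change was -0.30 (-0.81 to 0.21, limma, adjusted p = 0.999), and the groups overlapped. FOSL2 shares its locus with the antisense gene FOSL2-AS1 and with an unnamed long noncoding gene on its own strand, so part of its count is uncertain.

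IER2, a nuclear protein of the early response, had 838, 1089 and 856 normalized counts under DMSO and 901, 1216 and 1315 under Tan I, an order of libraries close to that of JUND. It overlaps 2 long noncoding genes on the opposite strand. Its log2 fold change was 0.29 (-0.13 to 0.72, limma, adjusted p = 0.999). Without Tan I replicate 1, the rule without adjustment called JUNB, JUND, IER2 and BTG2 as higher, where it called 4.32% of all genes as higher. KLF6, a zinc finger factor, varied least, by a ratio of 1.36 between its highest and lowest library. It had 665, 531 and 615 normalized counts under DMSO and 666, 720 and 617 under Tan I, and its log2 fold change was 0.15 (-0.17 to 0.47, limma, adjusted p = 0.999).

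BTG2, an antiproliferative protein and target of p53 that also recruits the deadenylation machinery, had 131, 135 and 152 normalized counts under DMSO and 162, 208 and 223 under Tan I. The lowest Tan I library exceeded the highest DMSO library. The groups did not overlap for 7.89% of all genes tested, and for 3.92% with Tan I above DMSO. Means were 139 ± 11.1 under DMSO and 198 ± 31.5 under Tan I (SD, n = 3 each). The log2 fold change was 0.49 with a standard error of 0.18 and a confidence interval of 0.07 to 0.92 (limma, unadjusted p = 0.0276, adjusted p = 0.999). The exact two-sided permutation test gave p = 0.1, the smallest that 3 libraries against 3 allow. For the other 9 genes the exact p lay between 0.2 and 1, and their groups overlapped. BTG2 lost its unadjusted call when DMSO replicate 1, DMSO replicate 2, Tan I replicate 2 or Tan I replicate 3 was left out, with log2 fold changes from 0.40 to 0.47.

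Among the remaining FOS and JUN genes, FOSB, a FOS subunit with a strong early response, had 236, 57.8 and 294 normalized counts under DMSO and 203, 213 and 168 under Tan I. FOSB thus repeated the arrangement of FOS, with DMSO replicate 2 at 0.218 times the mean of the other DMSO libraries. FOSL1 was near the lower limit of testing, with 26.1, 51.0 and 30.5 under DMSO and 20.5, 26.3 and 28.0 under Tan I. Log2 fold changes were 0.28 for FOSB and -0.46 for FOSL1 (limma, adjusted p = 0.999 for each), and FOSB overlaps ERCC1 on the opposite strand.

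Levels of different genes were compared per kilobase of the canonical GENCODE transcript. Over the 6 libraries the mean was highest for JUN (1177 normalized counts per kb), followed by FOS (637), DUSP1 (545), IER2 (491), JUNB (444), JUND (400), EGR1 (360), KLF6 (138), BTG2 (61.7) and FOSL2 (19.8). JUN was above FOS, FOS above DUSP1, KLF6 above BTG2 and BTG2 above FOSL2 in each of the 6 libraries. EGR1 was also above KLF6 in each, whereas the neighbours DUSP1 and IER2, IER2 and JUNB, JUNB and JUND, and JUND and EGR1 changed places in at least 1 library. Beyond neighbours, FOS lay below IER2, JUNB and JUND in DMSO replicate 2 and in Tan I replicate 3, and JUN lay below IER2 in DMSO replicate 2. Summed over the 7 FOS and JUN genes, the pool was 1544 normalized counts per kb in DMSO replicate 2, 2951 and 3749 in the other DMSO libraries, and 2492 to 2884 in Tan I. JUN made up 31.0% of the pool in DMSO replicate 2 and 46.9% and 47.4% in the other DMSO libraries, and 44.9%, 43.1% and 37.0% in Tan I replicates 1, 2 and 3. JUND made up 25.6% in DMSO replicate 2, against 10.6% and 9.15% in the others and 12.6%, 16.5% and 19.5% in Tan I. FOS made up 23.2% ± 7.45 under DMSO and 21.3% ± 2.47 under Tan I (SD, n = 3 each). FOSB, FOSL1 and FOSL2 each stayed under 3% in every library.

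**Figure D3:**
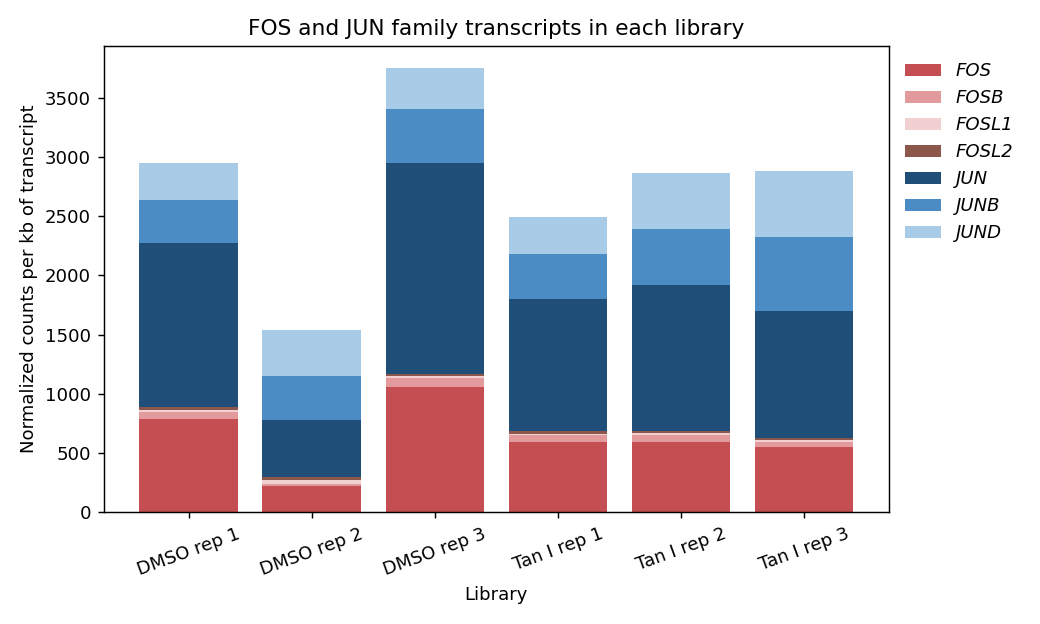
Transcripts of the 7 FOS and JUN genes in each library, as normalized counts per kilobase of canonical transcript, stacked by gene (FOS family in red and brown, JUN family in blue). DMSO replicate 2 has the smallest pool (1544) and DMSO replicate 3 the largest (3749), with the 3 Tan I libraries between 2492 and 2884.

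The pattern of DMSO replicate 2 was shared by some early genes outside the 10. Of 38 further immediate early genes tested, 6 lay at least 1 log2 unit below every other library in DMSO replicate 2. Of all genes tested, 0.817% did so. The 6 were EGR2 and EGR3, relatives of EGR1, the nuclear receptor NR4A1, FOSB, IER5 and PPP1R15A, a phosphatase subunit of the stress response. The rest of the 38 did not meet that rule, and MYC, ZFP36L2 and FOSL1 were highest in DMSO replicate 2. EGR3 had 128 normalized counts there and 384 to 584 in the other 5 libraries. NR4A1 had 379 there and 848 to 1855 elsewhere. PPP1R15A had 2638 there and 7545 to 11142 elsewhere. These 6 genes were picked out after their values were seen. Without DMSO replicate 2 their log2 fold changes were -0.72 for NR4A1, -0.44 for FOSB, -0.37 for EGR2, -0.30 for EGR3, -0.29 for PPP1R15A and -0.18 for IER5, and of these 6 NR4A1 alone was called.

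Heat shock genes, which encode chaperones induced by heat and other protein stress, were also low in that library. Of 10 heat shock genes, 4 met the same rule in DMSO replicate 2 (HSPA1A, HSPA1B, DNAJB1 and HSPA8), and the sum of the list was 100716 normalized counts there, against 203141 and 225604 in the other DMSO libraries and 205064 to 255201 in Tan I. DNAJB1, a co-chaperone of HSP70, had 2503 there and 6988 to 10752 elsewhere. HSPA1A and HSPA1B are near-identical copies whose reads can be lost or split when reads with several locations are removed. Within the same list HSPB1, HSPD1 and BAG3 were not low in that library. The part of these heat shock genes in the values of FOS, JUN, EGR1 and DUSP1 was not tested. Between Tan I and DMSO, 0 of the 10 heat shock genes were called. Their log2 fold changes ran from 0.07 (BAG3) to 0.64 (HSPA1B), with a median log2 fold change of 0.35 that became 0.01 without DMSO replicate 2.

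**Figure D4:**
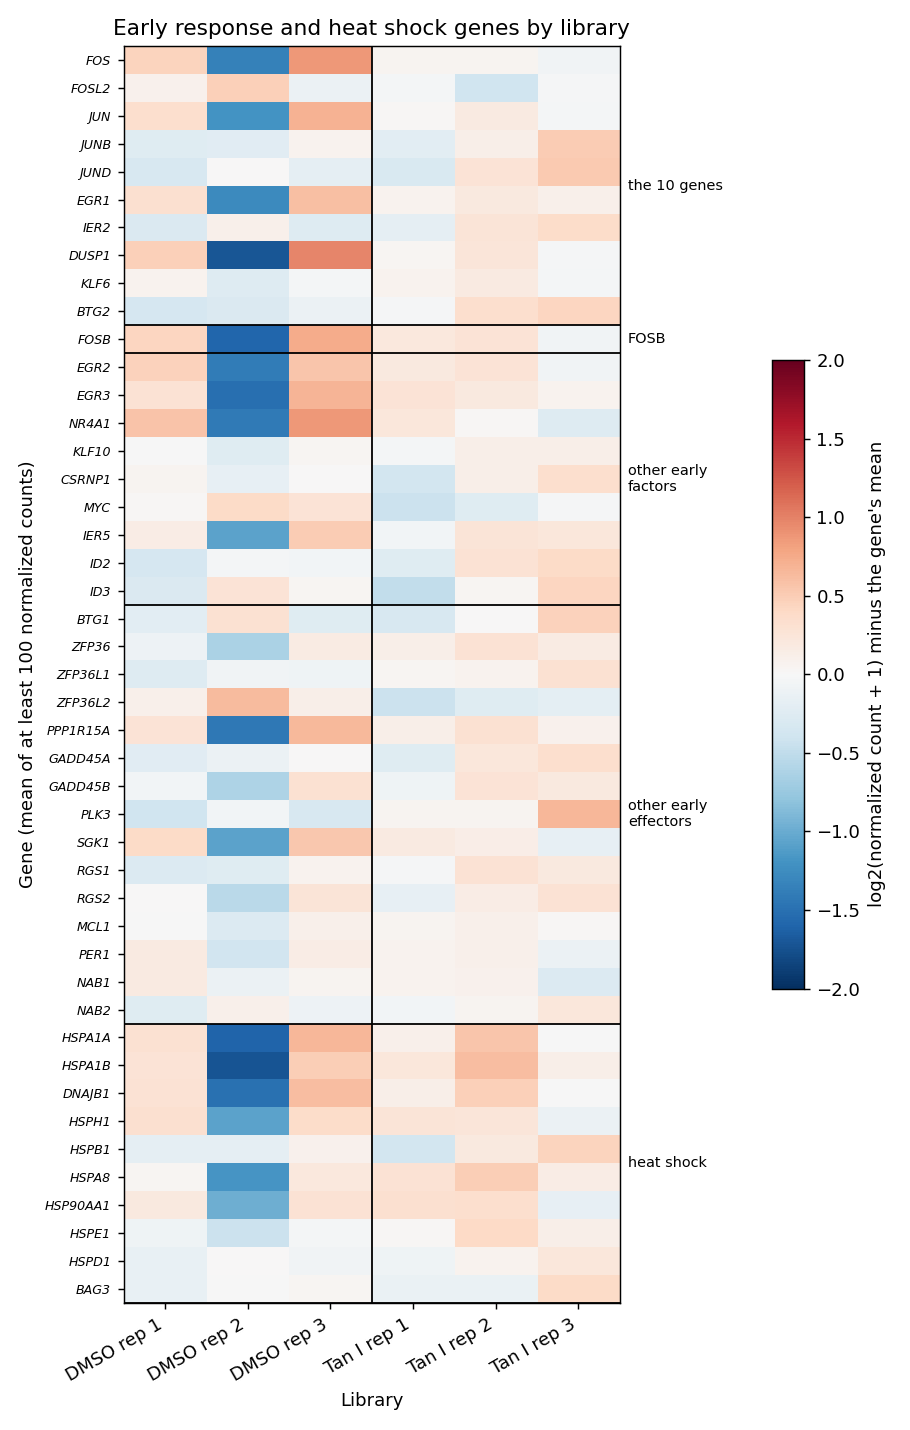
Difference of log2(normalized count + 1) from the mean of the gene over the 6 libraries (colour, blue lower and red higher) for early response and heat shock genes with a mean of at least 100 normalized counts (rows) in each library (columns). In the DMSO replicate 2 column FOS, JUN, EGR1, DUSP1, FOSB, EGR2, EGR3, NR4A1, IER5, PPP1R15A, HSPA1A, HSPA1B, DNAJB1 and HSPA8 are blue and at least 1 log2 unit below every other library. Other genes are blue there without meeting that rule, among them SGK1 (-1.07), HSPH1 (-1.07) and HSP90AA1 (-0.98). Tan I replicate 3 shows no such column.

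The genes around AP-1 were read from fixed lists, each beside the 2.42% of all genes called without adjustment and the median log2 fold change of -0.0016 over all genes. None of the list genes had an adjusted p of at most 0.05 in limma. Among 10 bZIP partners of AP-1 tested, 1 was called, MAFF, a small MAF protein, with 354 ± 30.1 normalized counts under DMSO and 478 ± 47.7 under Tan I (SD, n = 3 each), and the median log2 fold change of the list was 0.04. MAFF was not called without Tan I replicate 3 (log2 fold change 0.37), and without DMSO replicate 2 the list had 2 calls, MAFF as higher and ATF3 as lower. Among 15 other early transcription factors 1 was called, MYC, which was lower in Tan I, with 4064, 5259 and 4870 normalized counts under DMSO and 2990, 3385 and 3958 under Tan I (log2 fold change -0.46, unadjusted p = 0.0186, limma). Without DMSO replicate 2 its log2 fold change was -0.38 and it was not called, while NR4A1 was. NR4A3 had the highest value of that list, 0.36, not called.

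Of 21 other early effectors and feedback genes, 1 was called. ZFP36L2, which binds AU-rich elements and promotes mRNA decay, was lower, with 1749, 2517 and 1777 normalized counts under DMSO and 1214, 1384 and 1427 under Tan I (log2 fold change -0.57, unadjusted p = 0.0105, limma). PLK3 had the highest value, 0.53, and was called as higher when DMSO replicate 2 was left out. In that fit ZFP36L2 stayed called as lower. SGK1, picked out after its values were seen, was called as lower there as well (log2 fold change -0.42). Of 13 MAP kinase phosphatases and ERK inhibitors 1 was called, DUSP3, at -0.31, and the call was lost without DMSO replicate 2. Its relative DUSP2 stood at 0.26, not called. Of 27 genes of the MAP kinase cascade and serum response factor 1 was called, RPS6KA1, the kinase RSK1 downstream of ERK, with 3607 ± 167 normalized counts under DMSO and 4510 ± 223 under Tan I (SD, n = 3 each, log2 fold change 0.32). MAP2K3 at 0.34 and MAP3K1 at -0.39 were the extremes, not called. The medians of these 3 lists were 0.12, 0.01 and 0.03.

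Of 15 genes known as AP-1 targets, 4 passed the unadjusted rule as higher and 0 as lower, with a median log2 fold change of 0.41, beside the 1.32% of all genes called as higher. CXCL8, the neutrophil chemokine IL-8, had 2143, 1526 and 2178 normalized counts under DMSO and 2693, 3407 and 3415 under Tan I (log2 fold change 0.71, unadjusted p = 0.00446, limma). ICAM1, an adhesion molecule, had 242, 381 and 291 under DMSO and 406, 430 and 487 under Tan I (0.55, unadjusted p = 0.022). The others were MMP9, the gelatinase that the study singles out, at 0.58, and TGFB1, a growth-inhibiting cytokine, at 0.33, of which TGFB1 had overlapping groups. The count was 6 without DMSO replicate 2, with a median of 0.55, where 1.72% of all genes were called as higher. It was 2 without Tan I replicate 3, with a median of 0.18 and ICAM1 and TGFB1 no longer called. In that fit 271 of all genes were called in either direction, in place of 408 with all libraries. These genes are also read by NF-kB and other factors, the list contains a gene the study selected on these libraries, and no test of the list as a whole was made. Of 7 promyelocyte markers, 2 were called, both as lower in Tan I, MPO (log2 fold change -0.78, unadjusted p = 0.000988, limma) and CTSG, a granule protease (-0.69), and 5 were not. The median of the list was -0.25, and 2 of the 7 were positive. Without DMSO replicate 2 the median was -0.11, CTSG was not called, and SPI1, the myeloid factor PU.1, was called as higher (0.50, from 0.36 with all libraries). The sum of the list, most of it MPO, was 72570 to 79238 normalized counts under DMSO and 43706 to 52551 under Tan I. Of the other marker lists, 0 of 2 monocyte, 0 of 5 T and B cell and 0 of 3 fibroblast and endothelial genes were called, and 1 of 2 erythroid and platelet genes, ITGA2B, at 0.35. The part of these marker differences in the values of the 10 genes was not tested.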

How the data were processed

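RNA-seq of 6 NB4 libraries, grouped by GEO's sample titles, was used. The authors mapped the paired-end reads with STAR against GRCh38, dropped multi-mapped reads, counted genes with featureCounts and used DESeq2, with no versions, annotation release or strand setting given in the sources used here. The deposited signal values are gene counts divided by a size factor for each library. All of them (100%) were whole multiples, within 0.01, of the value of 1 read, so whole reads were recovered. Columns deposited by the authors for their own comparison (mean, log2 fold change with its error, Wald score, p-value) were left unused.

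limma 3.58.1 in R 4.3.3 (lmFit, eBayes with the mean-variance trend) was fitted to log2(normalized count + 1) of the 16887 genes whose mean reached 10, and p-values were adjusted over all of them. This scale understates fold changes at low counts. Exact permutation tests used scipy 1.17.1. Alternatives included edgeR 4.0.16 and DESeq2 1.42.0 on the recovered reads. The fits were tested on simulated reads of these genes. Those reads were drawn separately for each library, so they do not contain the leading principal component of the real libraries. Genes named were the 10, FOSB and FOSL1, and from each list every gene called without adjustment or, where fewer than 2 were called, the highest and lowest fold changes as well. A gene that this rule names is not reported here. Further genes, such as ATF3, SPI1 and DNAJB1, were named after their values were seen, also where this is not said beside them. The 10 genes and the lists were chosen with earlier results of these data known, and the leave-out counts for lists and the comparison of single libraries after the values were seen. Gene models came from GENCODE release 44 and promoters from RefSeq (GRCh38.p14), in which 10 of the 10 symbols matched.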

Additional observations from a re-analysis of the deposited data

How the results depend on the processing

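Over 17 alternative fits, FOSL2 stayed negative and JUNB, JUND, IER2, KLF6 and BTG2 positive, and none of the 10 genes reached an adjusted p of at most 0.05 (lowest 0.15, BTG2 with the leading principal component in the model). FOS, JUN and DUSP1 changed sign on the recovered reads, to -0.25, -0.093 and -0.20 in edgeR and -0.25, -0.094 and -0.20 in DESeq2, which compare mean counts and not mean log values. FOS was -0.038 after scaling to equal totals. Leaving out 1 library gave ranges of -0.65 to 0.46 for FOS, -0.46 to 0.48 for JUN, -0.34 to 0.60 for EGR1 and -0.64 to 0.70 for DUSP1, the lowest without DMSO replicate 2 and the highest without DMSO replicate 3. The 10 genes gave 0 to 4 unadjusted calls when 1 library was left out.

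Over all genes, the unadjusted count of 408 ranged from 160 (without Tan I replicate 2) to 1496 (without Tan I replicate 1) when 1 library was left out, was 1496 with the leading principal component in the model and 49 at a log2 fold change of 1 or more in either direction. Adjusted calls numbered 194 with that component in the model and 16 in DESeq2, which gave no adjusted p for 1965 genes. With the replicate block limma called 348 genes and 1 of the 10. Deviations of same-numbered libraries correlated at 0.75, -0.09 and -0.45, and only the replicates numbered 1 correlated best with each other. The labels do not say whether same-numbered libraries were paired. These correlations cannot decide it, because DMSO replicate 2 and Tan I replicate 3 stood apart from the rest on the leading component. The causes of the changes in the counts of called genes were not tested. Without division by length, the share of JUN among FOS and JUN transcripts was 52.3% in DMSO and 52.8% in Tan I in place of 41.8% and 41.7%.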

Other observations

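DUSP6, the ERK phosphatase whose level follows ERK activity, was picked out after its values were seen because it ran against DUSP1. It had 399, 1108 and 374 normalized counts in DMSO replicates 1, 2 and 3 and 395, 463 and 861 in Tan I replicates 1, 2 and 3. Its 2 highest libraries, DMSO replicate 2 and Tan I replicate 3, were those at the far end of the leading principal component, whereas DUSP1 was lowest in DMSO replicate 2 and stood at 948 in Tan I replicate 3. Its log2 fold change between the groups was -0.02 (limma, adjusted p = 0.999).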
